A study of Mus musculus with 8 samples.

Results

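Ly6a, Ly6e, Ly6c1 and Ly6c2 are 4 genes of the Ly6 family of small cell-surface proteins. They were chosen because their counts differed between the libraries labelled Alox15-/- and those labelled WT, so their values in that contrast are given as a description. Where it is stated which of them passed a threshold, this describes the fit across all genes and is no test of the members. They are 4 of the 28239 gene symbols in the deposited table, and all 4 were among the 12700 genes that passed the filter on low counts (2 or more CPM, counts scaled to a common library size, in 4 or more libraries).

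Ly6 proteins fold into a compact domain held by disulfide bridges and are tethered to the outer face of the membrane by a glycosylphosphatidylinositol (GPI) anchor. Ly6a encodes Sca-1, which marks blood stem and progenitor cells and rises on activated T cells. Ly6c1 and Ly6c2 encode the Ly6C antigen, which is abundant on monocytes and neutrophils and is also carried by memory T cells, and Ly6e encodes a widely expressed member known for its role in the entry of viruses. Ly6a, Ly6c and Ly6e are known to respond to interferon.

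The study asked how loss of Alox15, a lipoxygenase that makes pro-resolving lipid mediators, alters regulatory T cells (Tregs). Splenic naïve CD4+ T cells of C57BL/6 mice, WT and Alox15-/-, were used, with 4 libraries of each genotype. The methods describe the mice of the whole study as female and male, aged 10–12 weeks, without the sex behind each library. Each library was taken to come from 1 mouse. Over 2 days, TGF-β (5 ng/ml), IL-2 (100 U/ml) and 1 CD3/CD28 bead per cell drove the cells of both groups towards Tregs. Their RNA was counted by MACE-seq, which reads transcripts near their 3′ ends, although the labels name a small RNA kit. The deletion was carried by the whole animal, and the methods name different suppliers for the WT and the Alox15-/- mice, so supplier and genotype cannot be told apart.

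The total count per library lay between 3723151 and 9538962, and no pair of libraries of a group agreed within sampling noise. The targeted gene went against the label. Alox15 (ENSMUSG00000018924.6, chromosome 11) was read at 70.2, 68.8, 63.4 and 65.0 CPM in the 4 libraries labelled Alox15-/- (KO1 to KO4) and at 1.87, 2.55, 7.73 and 8.98 CPM in WT1 to WT4. The deleted part is not given in the sources used here, and reads near the 3′ end may lie outside it. For this reason the groups are named by their labels throughout. T cell markers were present in every library, with a summed level of 8 markers of 2055–2373 CPM in the libraries labelled Alox15-/- and 2260–2632 CPM in WT. Cd3e differed by 0.08 (adjusted p = 0.890) and Cd4 by -0.32 (adjusted p = 0.358) on the log2 scale in edgeR, and Il2ra, the IL-2 receptor chain carried by Tregs, by -0.12 (adjusted p = 0.838). The groups of Cd4 did not overlap, at 209–296 CPM in the libraries labelled Alox15-/- and 326–350 CPM in WT. Those of Cd3g lay apart in the other direction, at 151–169 against 110–139 CPM. Of the 8 T cell markers, 0 passed in edgeR and 2 had an unadjusted p under 0.05, beside 1.24% and 996 of all 12700 genes. Summed Treg markers lay at 1793–1946 against 1832–2056 CPM, with 0 of 7 past the threshold of edgeR, beside 1.24% of all genes, and 1 at an unadjusted p under 0.05, beside 996 of 12700. Foxp3, the factor that defines Tregs, was at 93.0 ± 17.0 against 124 ± 47.2 CPM (SD, n = 4), and the difference did not pass the test of edgeR (adjusted p = 0.655).

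All 4 Ly6 genes lie in 1 stretch of chromosome 15 (GRCm38, GENCODE annotation). Ly6e (ENSMUSG00000022587.14) spans chr15:74955051-74959905 on the plus strand. Ly6a (ENSMUSG00000075602.10, chr15:74994877-74998031), Ly6c1 (ENSMUSG00000079018.10, chr15:75044018-75048830) and Ly6c2 (ENSMUSG00000022584.14, chr15:75108158-75111970) lie on the minus strand. The gene starts of Ly6a, Ly6c1 and Ly6c2 are 43.0, 93.8 and 157 kb from that of Ly6e.

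The coding sequences of Ly6c1 and Ly6c2 are printed because this pair is so alike that reads can be assigned to either gene. They differ at 9 of 393 bases, and the first 270 bases are shown, with capitals at the 7 differences that lie there (GENCODE transcripts of GRCm38, 5′ to 3′).
Ly6c1: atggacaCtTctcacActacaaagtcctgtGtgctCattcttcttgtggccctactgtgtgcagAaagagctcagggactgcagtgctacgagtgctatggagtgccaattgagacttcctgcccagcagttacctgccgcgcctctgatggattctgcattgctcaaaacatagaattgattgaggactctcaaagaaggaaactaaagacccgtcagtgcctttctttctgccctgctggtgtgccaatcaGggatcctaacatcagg
Ly6c2: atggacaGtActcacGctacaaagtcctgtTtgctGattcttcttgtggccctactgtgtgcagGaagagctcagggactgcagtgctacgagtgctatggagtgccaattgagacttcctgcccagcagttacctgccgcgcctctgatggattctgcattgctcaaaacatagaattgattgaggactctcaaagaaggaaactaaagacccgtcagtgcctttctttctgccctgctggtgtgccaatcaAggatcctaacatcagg
The pair was identical at 97.7% of coding bases. Ly6a matched Ly6c1 at 81.8% and Ly6c2 at 81.6% of aligned coding bases, whereas Ly6e matched Ly6a at 52.6%, Ly6c1 at 49.1% and Ly6c2 at 48.6%. Over the last 500 bases of the transcripts, the end that MACE-seq reads, Ly6c1 and Ly6c2 were 95.5% identical. Of the 451 windows of 50 bases in that stretch, 90 of Ly6c1 (19.96%) occur unchanged in another gene, as do 93 of Ly6c2 (20.6%), 20 of Ly6a (4.43%) and 0 of Ly6e. The genes that share them are Ly6a, Ly6c1, Ly6c2 and I830127L07Rik, so the split of reads among these is uncertain, and Ly6e is the member whose reads are least open to it.

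Ly6c1, which encodes Ly6C together with its neighbor, was read at 44.9, 89.1, 57.2 and 32.9 CPM in KO1 to KO4. In WT1 to WT4 it was read at 15.0, 14.5, 10.3 and 10.2 CPM. All 4 libraries labelled Alox15-/- lay above all WT libraries, and KO2 stood highest. The group means were 56.0 ± 24.2 and 12.5 ± 2.58 CPM (SD, n = 4), a log2 fold change of 2.15 with a standard error of 0.26.

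Ly6c2 was read at 47.1, 94.8, 63.2 and 26.6 CPM in the libraries labelled Alox15-/- and at 7.95, 8.604, 10.03 and 9.81 CPM in WT. The groups did not overlap, and the lowest library labelled Alox15-/- (KO4) was still above the highest WT library (WT3). The means were 57.9 ± 28.8 and 9.10 ± 0.990 CPM (SD, n = 4), and the log2 fold change of 2.65 (SE 0.30) was the highest of the 4 genes, at 6.26-fold. The raw counts behind these levels were 186 to 351 in the libraries labelled Alox15-/- and 47 to 100 in WT.

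Because reads of this pair can be exchanged, they were also summed in each library. The sum was 92.0, 184, 120.4 and 59.5 CPM in KO1 to KO4. In WT1 to WT4 it was 22.9, 23.1, 20.4 and 20.04 CPM, so that WT libraries differed among themselves by less than any gap to a library labelled Alox15-/-. The log2 fold change of the sum was 2.39 (SE 0.26), with means of 114 ± 52.8 and 21.6 ± 1.63 CPM (SD, n = 4). The value for the sum does not rest on which gene of the pair a read was given to. Reads exchanged with Ly6a or I830127L07Rik, which share windows with Ly6c2, could still alter it.

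The split of the pair varied between libraries. Ly6c2 took 51.2% of the pair's reads in KO1 (exact 95% binomial interval 46.0–56.3%), 51.5% in KO2 (47.7–55.4%), 52.5% in KO3 (48.5–56.4%) and 44.7% in KO4 (39.9–49.6%). In WT it took 34.7% (27.0–43.0%), 37.2% (29.4–45.7%), 49.3% (42.2–56.4%) and 49.0% (38.6–59.4%). WT1 and WT2 had the lowest shares, and the intervals of WT3 and WT4 overlapped those of all 4 libraries labelled Alox15-/-. The intervals cover counting error only.

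**Figure D1:**
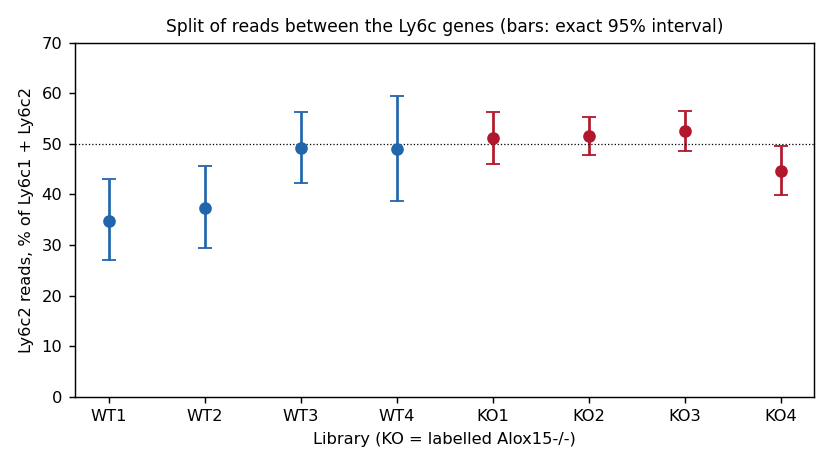
Share of the reads of Ly6c1 and Ly6c2 that were assigned to Ly6c2 (y axis, percent) in each of the 8 libraries (x axis), with exact 95% binomial intervals and a dotted line at an even split. WT1 and WT2 lie at 34.7% and 37.2%, and the other 6 libraries lie between 44.7% and 52.5%.

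Ly6a (Sca-1) was read at 367, 686, 440.4 and 205 CPM in KO1 to KO4 and at 151, 211, 93.9 and 72.7 CPM in WT1 to WT4. The groups overlapped, since KO4 was below WT2. The means were 425 ± 199.9 and 132 ± 62.3 CPM (SD, n = 4), which gives a log2 fold change of 1.68 (SE 0.33) or 3.20-fold. The highest library was 3.34 times the lowest among those labelled Alox15-/- and 2.91 times the lowest in WT.

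Ly6e was read at 612, 793, 760 and 602 CPM in the libraries labelled Alox15-/- and at 485, 555, 546 and 454 CPM in WT. The groups did not overlap, but the distance was small. The means were 692 ± 99.0 and 510.1 ± 48.6 CPM (SD, n = 4), and the log2 fold change was 0.44 (SE 0.11), or 1.36-fold.

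**Figure D2:**
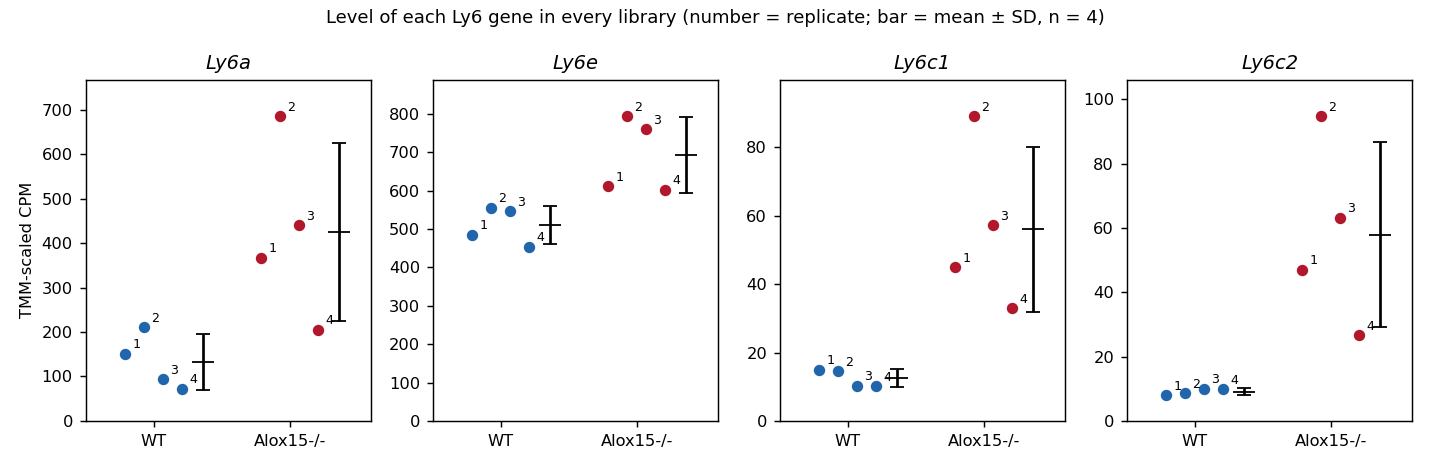
Level of each Ly6 gene (y axis, TMM-scaled CPM, from 0) in the 4 WT and the 4 libraries labelled Alox15-/- (points, numbered by replicate), with the mean and SD of each group as a bar (n = 4). Ly6e, Ly6c1 and Ly6c2 do not overlap between the groups, whereas Alox15-/- replicate 4 of Ly6a lies below WT replicate 2.

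Under the edgeR fit across all genes, 3 of the 4 members (Ly6a, Ly6c1 and Ly6c2) passed the threshold of an adjusted p of 0.05, beside 1.24% of all genes tested, or 1.05% in the higher and 0.197% in the lower direction. Groups without overlap and higher in the libraries labelled Alox15-/- were found for 3 of the 4 (Ly6e, Ly6c1 and Ly6c2), beside 2.75% of all genes. Since the genes were picked on this contrast, nothing is read from these counts. A larger rise on the log2 scale was fitted for 42 genes in the case of Ly6c2, 54 for Ly6c1, 68 for Ly6a and 664 for Ly6e. In bulk RNA, more cells of a type that carries Ly6 proteins and more RNA per cell cannot be told apart.

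The place of Ly6a above the threshold depended on single libraries. Its log2 fold change was 1.35 without KO2, 1.67 without KO3, 1.75 without WT1 and 1.54 without WT3, and in each of these fits it no longer passed. It also missed the threshold in edgeR's robust fit, and it passed in the other 7 of 8 settings of scaling, filter, test and replicate block. Ly6e passed in 2 of the 8 settings (no filter, and DESeq2) and in none of the fits with a library left out, whereas Ly6c1 and Ly6c2 passed in each. These fits use the contrast on which the genes were chosen, so nothing is read from them as support.

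Within the libraries labelled Alox15-/-, the 4 genes stood in 1 order, with KO2 highest, followed by KO3, KO1 and KO4. In WT they had no common order: Ly6c2 was highest in WT3 and Ly6c1 in WT1, whereas Ly6a and Ly6e were highest in WT2. The deviations of log2 CPM from the mean of their own group, over all 8 libraries, gave a Pearson r of 0.92 (Spearman rho 0.98) for Ly6a with Ly6c1. Without the 2 libraries farthest from the median of Ly6a, that r was 0.87. For Ly6c1 with Ly6c2, r was 0.78 and rho 0.38, and r was -0.27 without the 2 farthest libraries, so that relation rests on those libraries. For the other 4 pairs r lay between 0.60 and 0.74, and between 0.38 and 0.49 without the 2 farthest. These are descriptions of 8 libraries that share their scaling, and 0.505% to 11.8% of the genes compared with a member had a higher r with it than its partner had.

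The spread between libraries set Ly6a apart from genes of a like level. The SD of its log2 CPM was 0.72 in the libraries labelled Alox15-/- and 0.69 in WT, where the median of 1201 genes within 2-fold of its mean CPM was 0.13 and 0.15. Of those genes, 99.8% and 99.6% had a smaller SD. Ly6c1 and Ly6c2 were spread widely in the libraries labelled Alox15-/-, with SDs of 0.60 and 0.77, above 99.3% and 99.6% of genes of a like level, and had SDs of 0.29 and 0.15 in WT, above 82.3% and 37.8%. The difference between the groups' spreads was not tested. Ly6e had SDs of 0.21 and 0.14, above 89.5% and 42.0% of 486 genes.

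**Figure D3:**
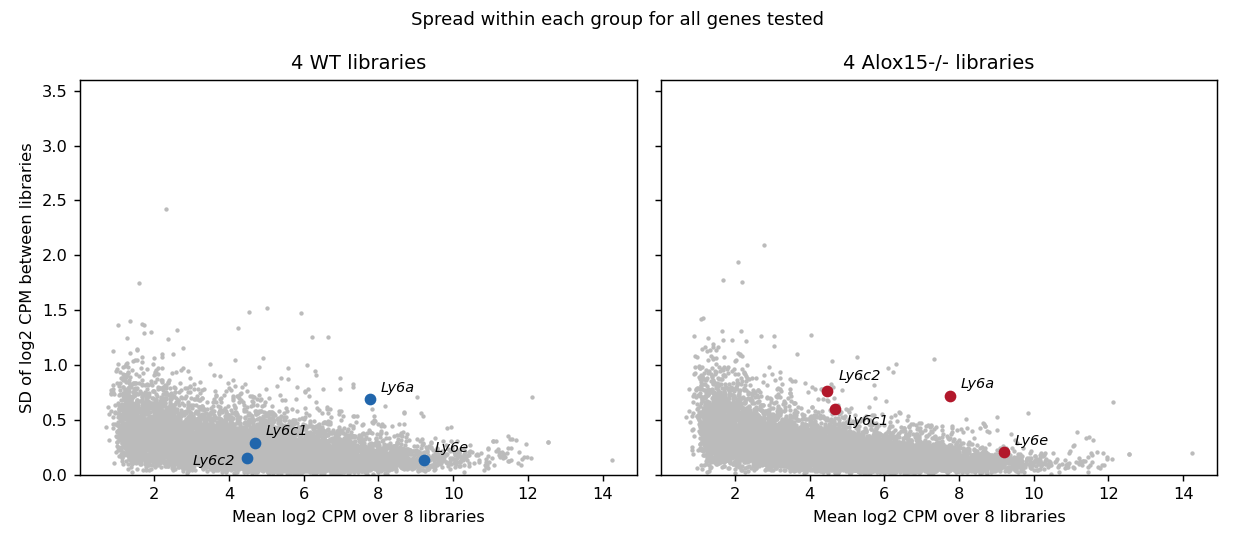
SD of log2 CPM between the 4 libraries of a group (y axis) against the mean log2 CPM over all 8 libraries (x axis), for WT (left) and the libraries labelled Alox15-/- (right). Gray points are all 12700 genes tested, and Ly6a lies near the upper edge for its level in both groups, at 0.69 and 0.72.

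Sums of markers of several other blood cells were higher in the libraries labelled Alox15-/-. The sum of 8 neutrophil markers was 50.9, 291, 163 and 13.5 CPM in KO1 to KO4 and 4.68–7.93 CPM in WT, and 3 of the 4 tested (S100a8, S100a9 and Ngp) were called higher, beside 1.05% of all genes. S100a9 and Ngp were under 2 CPM in every WT library and passed the filter through the libraries labelled Alox15-/-, so that they had to differ, and the same holds for Alas2, Ms4a2, Prss34 and Hdc among the erythroid and mast cell and basophil markers. S100a8, Tyrobp, Fcer1a, Klrc1 and Gata2 reached 2 CPM in 1 WT library and also owe their place to the libraries labelled Alox15-/-, so nothing is read from the counts of markers called. The sum of 12 monocyte and macrophage markers was 68.5, 165, 106 and 59.0 CPM against 21.5–31.1 CPM in WT, with 3 of 6 tested called higher (Lyz2, Tyrobp and Fcer1g). Both sums ranked the libraries labelled Alox15-/- as the Ly6 genes did, from KO2 through KO3 and KO1 to KO4, and so did the sums of eosinophil markers and of NK and γδ T cell markers. Other sums did not. Erythroid markers were highest in KO3, and mast cell and basophil markers stood in the order KO2, KO1, KO3 and KO4. The share of all genes with the order of the Ly6 genes was not computed. Ly6C is a known surface protein of neutrophils and monocytes. No listed marker in the table was at 0 in all 8 libraries, and S100a9 was at 0 in WT2.

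Further marker sums were also higher in the libraries labelled Alox15-/-. Summed erythroid markers lay at 903–3473 CPM against 34.5–123 CPM in WT, with all 5 tested called higher, beside 1.05% of all genes here and for the lists that follow. Mast cell and basophil markers lay at 115–330 against 32.9–50.7 CPM (6 of 7 tested higher), eosinophil markers at 20.5–76.4 against 1.25–10.4 CPM (2 of 2), and markers of NK and γδ T cells at 90.0–184 against 32.8–54.8 CPM (5 of 6). Sums of markers of CD8 T cells lay at 12.02–21.8 against 21.3–31.6 CPM, and B cell markers at 5.53–8.10 against 8.27–21.1 CPM, with 1 of 2 tested called lower (Ms4a1, which passed the filter only through WT and so had to differ). Plasmacytoid dendritic cell markers overlapped between the groups (109–150 and 98.3–126 CPM, 0 of 3 called), as did plasma cell markers (134–159 and 133–170 CPM, with Igha called higher) and those of hematopoietic progenitors, which also carry Sca-1 (38.8–60.5 and 34.7–42.0 CPM, with Gata2 called higher of 2 tested). Endothelial markers lay at 37.8–48.1 and 32.4–36.02 CPM, with 0 of 3 called. The naïve CD4+ T cells had been isolated by immunomagnetic negative selection. How far this step removed each of these cell types is not given in the sources used here. The part of such cells in the Ly6 values was not tested.

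Without KO2 and KO3, which held most of the neutrophil and monocyte marker counts, the log2 fold changes were 1.63 for Ly6c1, 2.00 for Ly6c2, 1.81 for their sum, 1.11 for Ly6a and 0.26 for Ly6e. This choice of libraries was made after the values were seen, and since KO2 and KO3 were the highest of their group for all 4 genes, leaving them out lowers every fold change by construction. In the remaining KO1 and KO4 the neutrophil sums of 50.9 and 13.5 CPM and the monocyte sums of 68.5 and 59.0 CPM were still above every WT library.

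**Figure D4:**
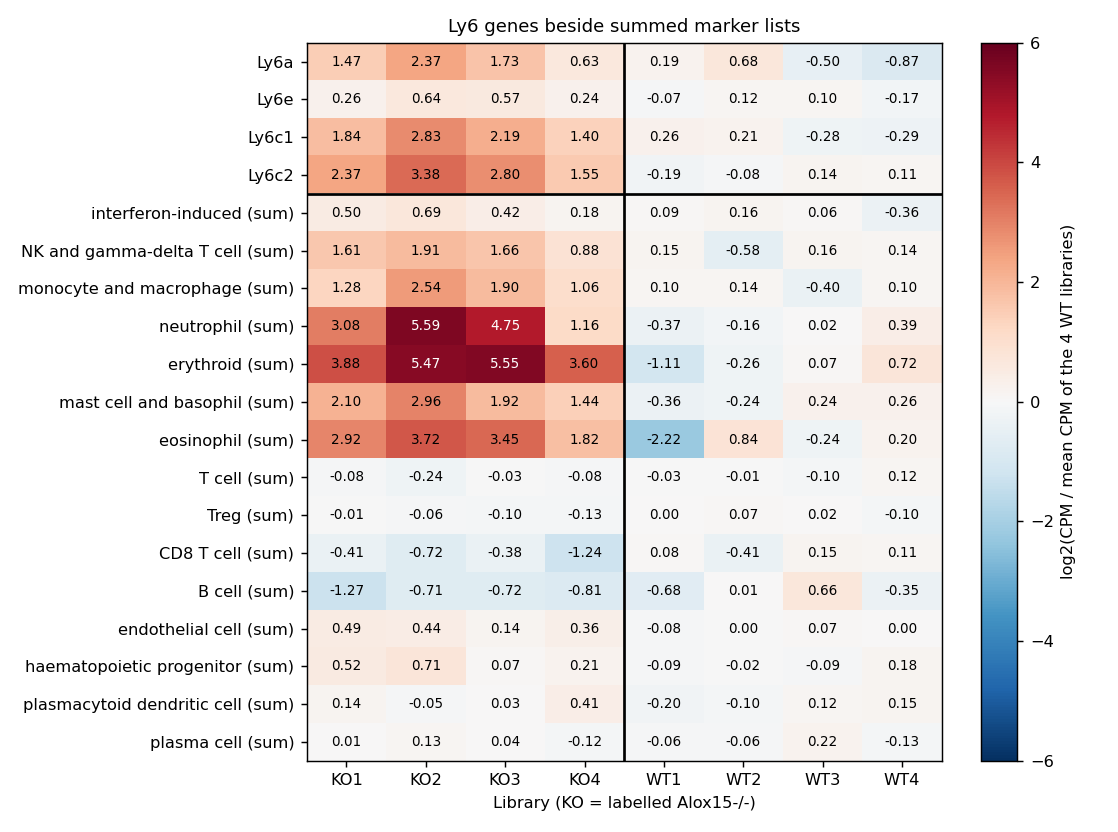
Log2 ratio of each value to the mean of the 4 WT libraries (color scale and printed numbers) for the 4 Ly6 genes and, under the black line, the summed CPM of marker lists, with libraries in columns. Within the libraries labelled Alox15-/-, sums of neutrophil, monocyte, eosinophil, mast cell and basophil, NK and γδ T cell markers and of interferon-induced genes are highest in KO2 and lowest in KO4, like the Ly6 genes, whereas sums of T cell and Treg markers stay near 0 in all 8 libraries.

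Of 38 further genes of the Ly6/uPAR family, 21 were in the table and 5 passed the filter. None of the 5 passed in edgeR or DESeq2, 0 had an unadjusted p under 0.05 in edgeR, beside 1.24% and 996 of all 12700 genes, and their median log2 fold change was 0.10 beside -0.0073 over all genes tested. Plaur, the urokinase receptor, was at 11.8 ± 3.69 against 10.8 ± 2.83 CPM (SD, n = 4; log2 0.10, adjusted p = 0.953). The log2 fold changes of Ly6g5b, Ly6k, Lynx1 and Ly6d were 0.74, 0.63, -0.07 and -0.73, with adjusted p of 0.655, 0.774, 0.977 and 0.794. Ly6d, a marker of early B cell progenitors, lay below 8 CPM in every library.

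The close relatives of Ly6c within the same cluster were too low for the filter. Ly6i had 8, 55, 26 and 7 reads in KO1 to KO4 and 5, 1, 9 and 4 reads in WT1 to WT4. After scaling this was 1.92, 14.8, 4.89 and 1.002 CPM against 0.780, 0.159, 0.903 and 0.835 CPM, so the groups did not overlap and KO2 was again the highest. Ly6f had 6, 11, 34 and 7 reads against 3, 3, 4 and 5 reads. With no filter, Ly6i (log2 2.90) and Ly6f (log2 2.33) passed the threshold of edgeR, in a fit that called 388 genes and whose p-values are not comparable with those of the filtered fit. Of the reads of Ly6i, 55 came from KO2 alone. I830127L07Rik, which shares windows with Ly6a and Ly6c2, had 6 reads in KO2, 4 in KO3 and 0 in the other 6 libraries. Ly6g, which encodes the neutrophil antigen Ly6G, had 1 read, in KO2.

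Of 19 other genes with a start within 500 kb of a member, 5 passed the filter, and 0 of them passed the test or had an unadjusted p under 0.05 in edgeR, a count too small to differ from the 1.24% of all genes. Jrk and Them6, which are not of the family, had log2 fold changes of -0.36 and 0.19. Lynx1, Ly6d and Ly6k are also in this window, and all 5 lie on the side of Ly6e away from Ly6c2.

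**Figure D5:**
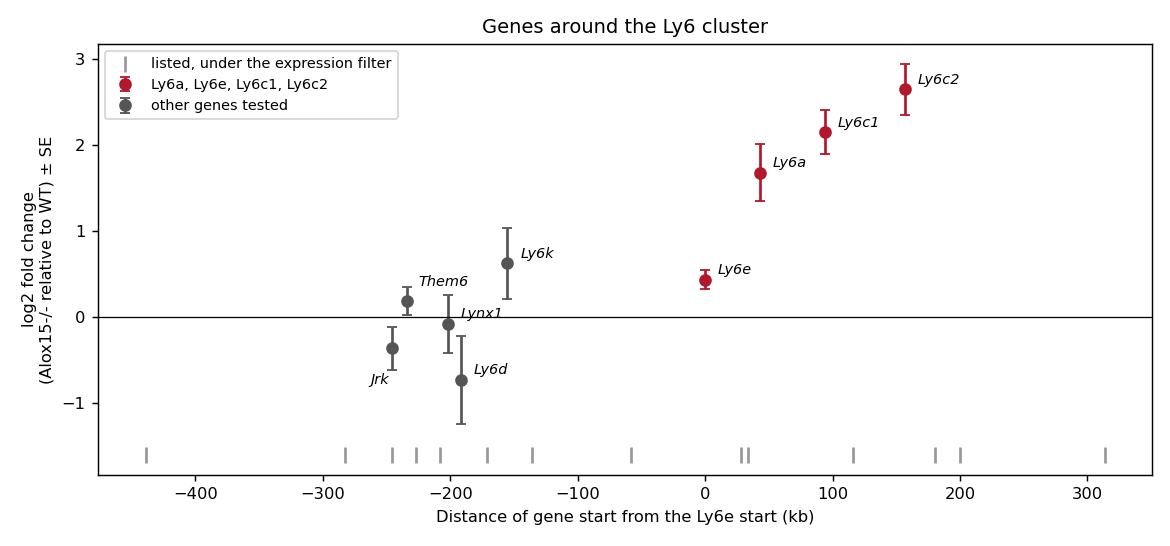
Log2 fold change (libraries labelled Alox15-/- relative to WT, ± SE, y axis) of genes around the cluster against the distance of their start from that of Ly6e in kb (x axis). The 4 Ly6 genes (red) lie between 0.44 at Ly6e and 2.65 at Ly6c2, the 5 other genes tested (gray) lie between -0.73 and 0.63, and ticks mark listed genes under the filter.

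Promoter windows were available for Ly6c1 and Ly6c2 in 4 entries (RefSeq, GRCm38.p6, 250 bases before to 50 after the start). None of them holds the interferon-stimulated response element (GAAA, any 2 bases, GAAA), which 3.44% of 32851 windows of that length hold on either strand, or the gamma-activated site TTCNNNGAA, which 8.30% hold. Ly6a and Ly6e had no entry. The windows of each gene overlap, and few windows of all genes hold either element. Sequence farther upstream was not searched, so nothing is read from the absence.

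Of 46 listed interferon-induced genes, 36 were tested, 12 rose in the libraries labelled Alox15-/- past the threshold of edgeR, and 0 fell, beside 1.05% of all genes called higher. Among the 12, Isg15 (1.87–3.76 CPM in WT) and Xaf1 (1.46–2.81 CPM in WT) lay near the filter in WT. They owe their place in part to the libraries labelled Alox15-/-, so nothing is read from their share of the count. The median log2 fold change of the 36 was 0.51 beside -0.0073 over all genes. Ifitm1, an antiviral membrane protein, was at 70.3 ± 42.0 against 6.15 ± 0.960 CPM (SD, n = 4; log2 3.47, adjusted p = 3.97e-05), and its libraries ranked KO2, KO3, KO1 and KO4 like the Ly6 genes. Xaf1 (log2 2.23, adjusted p = 0.000105), Irgm2 (log2 1.06, adjusted p = 0.0012) and Gbp5 (log2 0.90, adjusted p = 0.00615), interferon-induced genes of cell death and of GTPase defense, had their highest value in KO3. The number called fell to 5 without WT1, to 6 without KO2, KO3 or WT2, and to 2 without both KO2 and KO3. Summed over the list the level was 2119–3014 CPM in the libraries labelled Alox15-/- and 1454–2090 CPM in WT.

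Of 29 genes of the synthesis and remodelling of the GPI anchor, 26 were tested and 0 passed in edgeR or DESeq2, near the 1.24% of all genes, 1 had an unadjusted p under 0.05, and the median was -0.08. Among 12 tested genes of other GPI-anchored surface proteins of lymphocytes, 0 passed (4 at an unadjusted p under 0.05, beside 996 of all 12700 genes), 9 had a positive log2 fold change, beside 48.2% of all genes, and the median was 0.26. Bst2, the interferon-induced tetherin, was at 85.1 ± 9.98 against 57.9 ± 10.04 CPM (SD, n = 4; log2 0.56, adjusted p = 0.0673 in edgeR). Its groups did not overlap, and it passed in DESeq2, under upper quartile scaling, in the robust fit and with no filter. Cd48 (log2 0.35, adjusted p = 0.178) and Sema7a (log2 0.76, adjusted p = 0.273) did not overlap either. Thus 3 of the 12 were without overlap and higher, beside 2.75% of all genes. They were named after their values were seen, so nothing is read from this count.

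Ly6C is carried by memory T cells. Of 15 tested genes that separate memory and effector from naïve T cells, 0 passed in edgeR, near the 1.24% of all genes. In that fit 5 had an unadjusted p under 0.05 (Ccl5, Nkg7, Ifng, Il7r and Eomes), beside 996 of all 12700 genes. The list joins genes of opposite roles, so its median log2 fold change of 0.30 gives no direction. Ccl5, a chemokine of memory and cytotoxic T cells, was at 6.33 ± 2.06 against 2.78 ± 1.02 CPM (SD, n = 4; log2 1.21, adjusted p = 0.116), and passed in DESeq2, with no filter and without WT4. The effector genes Ifng (log2 1.20, adjusted p = 0.386) and Nkg7 (log2 0.67, adjusted p = 0.375) did not pass in edgeR but did with no filter, and Nkg7 also passed without KO4. Eomes (log2 0.66, adjusted p = 0.592), Il7r (log2 0.54, adjusted p = 0.415) and Cd44 (log2 -0.17, adjusted p = 0.823) did not pass either.

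The genes whose deviations within the groups were most like those of a member, among 9305 genes of at least 10 CPM, were named without regard to their difference between the groups, and 1 of the 20, Ngp, was called in that contrast. For Ly6a they were Naa50 (r = 0.99 over 8 libraries), Snx10, Rap1a, Rac1 and Zfx. For Ly6e they were Aurka (r = 0.98), Ercc6l, Shmt2, Gm3571 and Trim28, and for Ly6c1 they were Idi1 (r = 0.99), Akt1, Tmem263, Tbc1d9 and Msmo1. For Ly6c2 they were Ngp (r = 0.99), a neutrophil granule gene that reached 10 CPM only through the libraries labelled Alox15-/- (means of 19.7 and 1.33 CPM), followed by Pgd, Ints5, Tars and Plcg2. Ranked by Spearman's rho, 1 of these 20 genes stayed among the 5 nearest of its member. With 8 libraries, a high r is reached by some of 9305 genes whatever their function.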

How the data were processed

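The data were raw counts of reads per gene symbol that the authors deposited for 4 libraries labelled Alox15-/- and 4 labelled WT, without normalization. The reads had been cleaned and trimmed per the labels, and the submitters' processing notes name Bowtie, edgeR and GRCm38 without roles or versions; the counting tool is not given in the sources used here. No column of values was left out, and symbols were kept as listed.

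A gene was kept when 4 libraries or more reached 2 CPM (12700 of 28239, 45%), and libraries were scaled by TMM. Groups were compared with the quasi-likelihood test of edgeR 4.0.16 in R 4.3.3, using the group alone as a term, and Benjamini–Hochberg adjustment ran over the whole table of tested genes (threshold 0.05). The biological coefficient of variation was 14.5%. On simulated counts of this design, 93.5% of 200 genes changed by a log2 fold of 1.5 were called, as were 13 unchanged genes. Log2 CPM used a prior count of 2. Depth was 3723151 to 9538962 counts per library, so that 1 CPM stands for about 4 to 10 reads.

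The 4 members and all gene lists were chosen with earlier results of these data known. Named genes were the members, Alox15, up to 4 called genes per list, tested relatives of the Ly6/uPAR family, tested neighbors within 500 kb, T cell and Treg markers, and the 5 genes most like each member. Ly6i, Ly6f, Ly6g, I830127L07Rik, Bst2, Cd48, Sema7a, Ccl5, Nkg7, Ifng, Il7r, Eomes, Cd44, Cd3g, Isg15 and the called markers of other cells were named after their values were seen. Sequences were read from GENCODE transcripts and compared with Biopython 1.88; RefSeq promoter windows came from GRCm38.p6. Alternatives were other scalings, filters and tests (DESeq2 1.42.0, limma-voom with limma 3.58.1), the replicate number as a block, and each library left out.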

Additional observations from a re-analysis of the deposited data

Results flagged for a closer look

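A library that stood far from the other 3 of its group was found 4 times among 50 groups of values examined, and chance gives such a library in about 1 of 20 groups. Ly6k was at 6.89 CPM in WT4, where the nearest WT library was at 2.51 CPM. The summed CD8 T cell markers were lowest in WT2, at 21.3 CPM, where the nearest WT library was at 29.9 CPM. The summed NK and γδ T cell markers were also lowest in WT2, at 32.8 CPM with the nearest at 53.9 CPM. The summed monocyte and macrophage markers were lowest in WT3, at 21.5 CPM with the nearest at 30.3 CPM. None of the 4 Ly6 genes had a library that stood apart in this way.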

How the results depend on the processing

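Across 8 settings of scaling, filter, test and block, log2 fold changes lay between 1.66 and 1.70 for Ly6a, 0.42 and 0.47 for Ly6e, 2.05 and 2.17 for Ly6c1, 2.46 and 2.67 for Ly6c2, and 2.25 and 2.41 for the sum of the Ly6c genes. With single libraries left out the ranges were 1.35 to 2.00, 0.37 to 0.50, 1.84 to 2.35, 2.31 to 2.90 and 2.06 to 2.61. Without KO replicates 2 and 3, a choice made after seeing the data, they were 1.11, 0.26, 1.63, 2.00 and 1.81, with 60 genes called, 2 of them interferon-induced. With no filter, 388 genes were called, among them 2 other Ly6/uPAR genes, 3 GPI-anchored, 19 interferon-induced and 3 memory and effector genes; the cause was not tested. Of the GPI-anchored list, 1 gene (Bst2) was called under upper quartile scaling, in DESeq2 and in the robust fit, and DESeq2 called 1 memory and effector gene (Ccl5). Leaving out single libraries gave 86 to 173 genes called, 5 to 13 interferon-induced and 0 to 1 memory and effector genes. Replicate numbers are shared by the groups, and deviations of same-numbered libraries correlated at 0.07, 0.17, -0.18 and -0.02. Whether the numbers pair the mice is not given in the sources used here, and weak correlations cannot decide it. With the replicate number as a block, 146 genes and the same 3 members were called, with log2 fold changes of 1.68 for Ly6a, 0.43 for Ly6e, 2.11 for Ly6c1 and 2.57 for Ly6c2. Of the genes most like a member, 0 of the 5 of Ly6a, Ly6e and Ly6c1 and 1 of the 5 of Ly6c2 were shared when ranked by Spearman's rho. Depth limits Ly6i, Ly6f, Ly6g and I830127L07Rik, whose reads were too few for the filter, and the shares of the Ly6c pair in WT, which rest on fewer than 210 reads per library.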
